A study of Ericerus pela with 2 samples.

Results

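Unigenes (assembled transcript fragments) for the enzymes and transporters of insect eye pigments were compared between pupae and prepupae of male Ericerus pela, a scale insect known as the Chinese white wax scale. Members were all unigenes whose best protein database match names an enzyme of tryptophan breakdown along the kynurenine route, an enzyme of pteridine synthesis, xanthine dehydrogenase, or the transporters Scarlet and White. These words found 19 of 120710 unigenes, 18 of them with reads in pupae and all 19 with reads in prepupae. The 2 groups were male pupae and male prepupae, with 1 RNA library each, both labelled wild type and whole body and both with an age of 90 without a unit. The number of insects in a library is not given in the sources used here, and the submitters' design note speaks of retina where the labels speak of whole insects. The libraries have no replicate, so no test across samples could be made, and all intervals below cover counting error only.

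In insects, ommochromes are brown and red eye pigments made from tryptophan. Tryptophan oxygenase opens a ring of tryptophan, kynurenine formamidase releases kynurenine, and kynurenine 3-monooxygenase makes 3-hydroxykynurenine, the precursor of the pigment. In Drosophila, White pairs with Scarlet to move ommochrome precursors into pigment granules and with Brown to move precursors of the pteridines, the other eye pigments. Kynurenine aminotransferases use kynurenine for kynurenic acid instead. Xanthine dehydrogenase, the product of the Drosophila gene rosy, oxidises purines and pterins and needs a molybdenum cofactor. In whole insects, fewer cells of a type and less RNA per cell cannot be told apart.

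The libraries held 1840877 uniquely assigned reads in pupae and 2182108 in prepupae. Levels are given as RPKM, which divides reads by the length of the unigene and by the total of the library, a scale that allows comparison between unigenes of different length. Calls of higher or lower in pupae were made where log2((RPKM in pupae + 1)/(RPKM in prepupae + 1)) passed 2-fold, among the 113976 unigenes with a mean of at least 1 RPKM. The added 1 RPKM understates the change of low unigenes. Folds are ratios of RPM (reads scaled to the library total only) in pupae over prepupae with an exact binomial 95% counting interval in parentheses. Over all filtered unigenes the median log2 ratio was −0.49, with 23.0% called higher and 39.4% lower, and TMM scaling changed these shares to 29.6% and 30.9%. Summed reads of marker lists were 2267 in pupae and 494 in prepupae for eye (39 unigenes), 12139 in pupae and 6820 in prepupae for muscle (63 unigenes), and 1348 in pupae and 169 in prepupae for cuticle (19 unigenes). They were 819 in pupae and 290 in prepupae for the nervous system (9 unigenes), and 51 in pupae and 211 in prepupae for the germ line (7 unigenes). Of the 38 filtered eye unigenes, 16 were called higher (42.1%), 6 lower (15.8%) and 16 neither, with a median log2 ratio of 0.56. The eye list was drawn by the words opsin, arrestin, ninaC and rhodopsin. Higher calls made up 77.8% of the nervous system list, 70.6% of cuticle, 36.5% of muscle and 0% of the germ line. Lower calls made up 11.1%, 5.88%, 3.17% and 85.7% in the same order. Markers of tissues other than the eye were thus present in both libraries, and the part of tissue makeup in the results below was not tested.

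Kynurenine formamidase, kynurenine 3-monooxygenase and xanthine dehydrogenase were lower in pupae, while the pigment transporters were close to level in sum. A kynurenine/alpha-aminoadipate aminotransferase was 129-fold higher. Of the 19 members, 10 were called lower in pupae (52.6%, against 39.4% of all filtered unigenes), 2 higher (10.5%, against 23.0%) and 7 neither. After centring on the median of all filtered unigenes, 9 were lower (47.4%, against 31.3% of all filtered unigenes) and 2 higher (10.5%, against 30.0%). All 19 passed the filter on low values. Among filtered unigenes with a database match, 41.4% were lower and 14.7% higher. Among the 12 members with at least 50 reads, 5 were lower and 2 higher, against 36.2% lower and 19.8% higher of all filtered unigenes with at least 50 reads, so the share of lower calls in the deeper members lay near the background. The counting interval excluded no change for 8 of the 10 lower members and included it for the other two, tryptophan oxygenase and the Scarlet unigene with the fewest reads. The median log2 ratio was −1.42 for the members and −0.68 for all filtered unigenes with a database match. The members' median moved to −0.63 with tryptophan oxygenase, the member with 0 reads in pupae, set at a floor of 3 reads there.

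**Figure D1:**
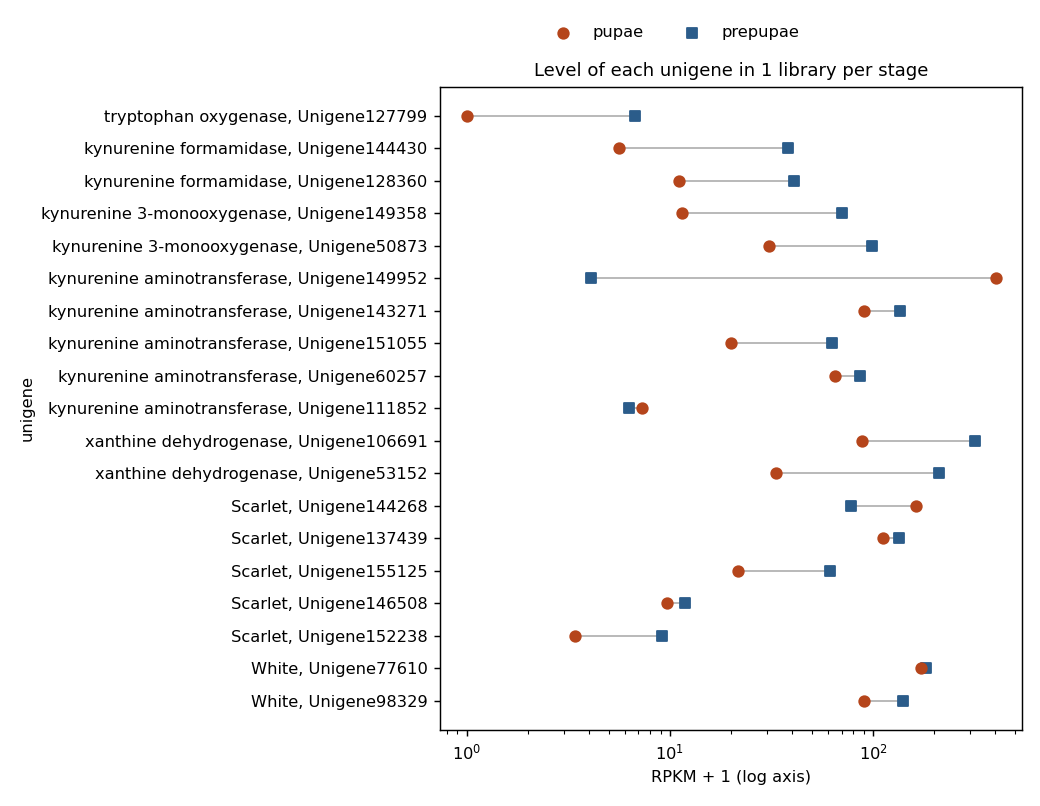
Level of the 19 unigenes in pupae (circles) and prepupae (squares), as RPKM + 1 on a log axis, with 1 library per stage and no error bar; a grey line joins the stages of a unigene. The kynurenine aminotransferase Unigene149952 is the highest of all in pupae (401 RPKM) and the lowest in prepupae (3.11 RPKM), and 16 of the 19 circles lie left of their squares.

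Members were 165 to 891 bases long, with a median of 387, and matched 16 different proteins of 10 insect species. Expect values of the matches ranged from 1.03e-62 to 3.74e-06. Several members can be fragments of 1 transcript, so they are not independent of each other, and reads shared by near-identical copies were not counted by the uniquely assigned reads. At least 1 deposited Gene Ontology term stood on 16 of the 19, and the term eye pigment biosynthetic process stood on the tryptophan oxygenase and 1 Scarlet unigene. The median level was 29.6 RPKM in pupae and 69.1 in prepupae, above the 6.22 in pupae and 8.005 in prepupae of all filtered unigenes.

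Tryptophan oxygenase, the entry enzyme known in Drosophila as vermilion, was scarce in both stages. Its unigene (Unigene127799_FOB, 320 bases) had 0 reads in pupae and 4 reads in prepupae (5.73 RPKM). Against a floor of 3 reads this is 1.12-fold lower in pupae, but the interval of the ratio (0 to 1.80) included no change. The call for this enzyme rests on those 4 reads.

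Kynurenine formamidase, the next enzyme, was lower in pupae in both of its unigenes, which matched proteins of the beetle Tribolium castaneum. Unigene144430_FOB had 4 reads in pupae (4.65 RPKM) and 38 in prepupae (37.3 RPKM), 8.01-fold lower (2.89 to 30.9). Unigene128360_FOB had 6 reads in pupae (10.1 RPKM) and 28 in prepupae (39.7 RPKM), 3.94-fold lower (1.60 to 11.6). The levels of both in prepupae were close to each other, and in sum they held 10 reads in pupae and 66 in prepupae, 5.57-fold lower (2.85 to 12.1).

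Kynurenine 3-monooxygenase, the enzyme known in Drosophila as cinnabar, was likewise lower in both unigenes. Unigene149358_FOB, best matched in the pea aphid Acyrthosiphon pisum, had 11 reads in pupae (10.5 RPKM) and 86 in prepupae (69.1 RPKM), 6.60-fold lower (3.51 to 13.7). Unigene50873_FOB, matched in the moth Biston betularia, had 9 reads in pupae (29.6 RPKM) and 35 in prepupae (97.2 RPKM), 3.28-fold lower (1.55 to 7.76). Reads covered 61.2% of the longer unigene in pupae and 95.8% in prepupae. In sum the enzyme held 20 reads in pupae and 121 in prepupae, 5.10-fold lower (3.16 to 8.65), with an interval that overlapped that of the formamidase.

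The kynurenine aminotransferase unigenes differed in direction. Unigene149952_FOB, named kynurenine/alpha-aminoadipate aminotransferase and best matched in the ant Camponotus floridanus, had 435 reads in pupae (401 RPKM) and 4 in prepupae (3.11 RPKM), 129-fold higher (49.99 to 475). An enzyme of this name also acts in lysine breakdown, and the unigene carries deposited terms for both tryptophan and lysine metabolism. Reads covered 98.8% of its 589 bases in pupae and 32.6% in prepupae. Its log2 ratio was larger than that of 99.8% of filtered unigenes. It took 43.6% of all member reads in pupae (40.5 to 46.7) and 0.340% in prepupae (0.0928 to 0.869), both with exact binomial intervals, so every sum over members depends on it. With it, members summed to 998 reads in pupae and 1176 in prepupae, a ratio of 1.01 (0.924 to 1.10). Without it, the sums were 563 in pupae and 1172 in prepupae, 1.76-fold lower (1.59 to 1.95).

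Of the other 4 aminotransferase unigenes, 1 was called lower and 3 neither. Unigene151055_FOB, matched in Tribolium, had 22 reads in pupae (19.1 RPKM) and 85 in prepupae (62.1 RPKM), 3.26-fold lower (2.02 to 5.47). Unigene143271_FOB, matched in the tsetse fly, had 74 reads in pupae (89.3 RPKM) and 132 in prepupae (134 RPKM), a ratio of 0.665 (0.493 to 0.890) that was short of 2-fold. Unigene60257_FOB had 21 reads in pupae (64.1 RPKM) and 33 in prepupae (85.0 RPKM), a ratio of 0.754 (0.415 to 1.34). Unigene111852_FOB had 3 reads in each library, and a difference was not detectable at this depth. The whole family held 555 reads in pupae and 257 in prepupae, 2.56-fold higher (2.20 to 2.98). Without Unigene149952_FOB it held 120 reads in pupae and 253 in prepupae, 1.78-fold lower (1.43 to 2.23).

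A pair of unigenes outside the rule was named alpha-aminoadipate aminotransferase alone and was lower in pupae; it was looked up after the values had been seen. Unigene149723_FOB, matched in the pea aphid, had 1 read in pupae and 62 in prepupae. Unigene32216_FOB, matched in the platypus, had 0 reads in pupae and 42 in prepupae, at least 9.19-fold lower by the exact interval. Of the 3 unigenes with alpha-aminoadipate aminotransferase in their name, 1 was thus abundant in pupae and the other two in prepupae, and in sum they held 436 reads in pupae and 108 in prepupae (4.79-fold higher, 3.87 to 5.96).

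**Figure D2:**
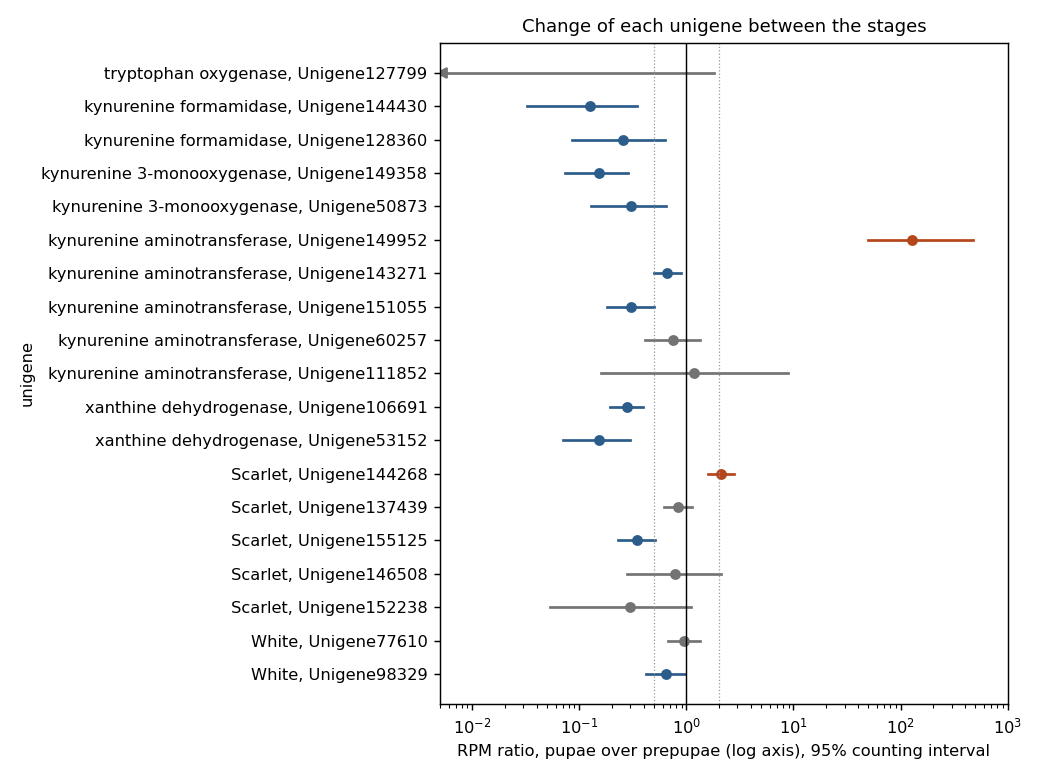
Ratio of RPM in pupae over prepupae for each member on a log axis, with its exact 95% counting interval from 1 library per stage; dotted lines mark 2-fold, and grey intervals include no change. The arrow marks an interval that reaches 0, and the intervals of 10 unigenes lie below 1 and those of 2 above it.

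No unigene matched the names GTP cyclohydrolase, sepiapterin or pyruvoyltetrahydropterin, which belong to the enzymes that make pterins from GTP, and this says nothing of their expression. Of the enzymes that act on pterins, xanthine dehydrogenase was the one found by the rule. Xanthine dehydrogenase had the highest level of all members in prepupae and was lower in pupae in both unigenes. Unigene106691_FOB, matched in the ant Harpegnathos saltator, had 40 reads in pupae (87.6 RPKM) and 171 in prepupae (316 RPKM), 3.61-fold lower (2.54 to 5.22). Unigene53152_FOB, matched in the mosquito Culex quinquefasciatus, had 10 reads in pupae (32.3 RPKM) and 77 in prepupae (210 RPKM), 6.50-fold lower (3.35 to 14.1). In order of level these had ranks 7 and 9 among the 19 members in pupae, and ranks 1 and 2 in prepupae. In sum the enzyme held 50 reads in pupae and 248 in prepupae, 4.18-fold lower (3.08 to 5.79).

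Scarlet and White are ABC transporters of subfamily G. Their 7 unigenes together held 363 reads in pupae and 480 in prepupae, a ratio of 0.896 (0.780 to 1.03) that turned to 1.13 to 1.26 with the other scalings, so no direction is given. Of the 5 Scarlet unigenes, 1 was called higher, 2 lower and 2 neither, and after centring on the median of all unigenes 1 was higher and 1 lower. Unigene144268_FOB, matched in Harpegnathos, had 138 reads in pupae (161 RPKM) and 78 in prepupae (76.9 RPKM), 2.10-fold higher (1.58 to 2.81). Unigene155125_FOB, at 891 bases the longest member, had 34 reads in pupae (20.7 RPKM) and 117 in prepupae (60.2 RPKM), 2.90-fold lower (1.97 to 4.39). Unigene137439_FOB, which matched the same ant protein as Unigene155125_FOB, had 79 reads in pupae (111 RPKM) and 112 in prepupae (133 RPKM), a ratio of 0.836 (0.619 to 1.13). This pair differed in level within each stage, and the unigenes named Scarlet did not share a direction. Expect values of the matches were 3.44e-10 for Unigene144268_FOB, 9.07e-15 for Unigene155125_FOB and 1.25e-09 for Unigene137439_FOB. Whether these unigenes are Scarlet or another transporter of subfamily G was not tested.

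The remaining Scarlet unigenes were low. Unigene146508_FOB had 8 reads in pupae (8.64 RPKM) and 12 in prepupae (10.9 RPKM), a ratio of 0.790 (0.280 to 2.10). It had the smallest expect value of the Scarlet matches (1.28e-33) and carries the term eye pigment biosynthetic process. Unigene152238_FOB had 3 reads in pupae (2.40 RPKM) and 12 in prepupae (8.11 RPKM), and the interval of its ratio (0.0537 to 1.10) included no change although it was called lower. That call was lost on centring (log2 −0.93).

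Neither White unigene was called. Unigene77610_FOB had 63 reads in pupae (172 RPKM) and 79 in prepupae (182 RPKM), a ratio of 0.945 (0.668 to 1.33). Unigene98329_FOB had 38 reads in pupae (89.4 RPKM) and 70 in prepupae (139 RPKM), a ratio of 0.643 (0.422 to 0.968) that was short of 2-fold. In order of level, White (Unigene77610_FOB) and the Scarlet unigenes Unigene144268_FOB and Unigene137439_FOB had ranks 2, 3 and 4 in pupae. The same unigenes had ranks 3, 9 and 6 in prepupae, where both xanthine dehydrogenase unigenes stood above them.

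Further unigenes named scarlet, white or brown were missed by the words of the rule and were looked up after the values had been seen. The 7 named similar to scarlet held 59 reads in pupae and 86 in prepupae, and the 1 named white held 13 in pupae and 24 in prepupae. Brown had 0 reads in pupae and 9 in prepupae, at least 1.67-fold lower by the exact interval. Inside and outside the rule, the 16 transporter unigenes held 435 reads in pupae and 599 in prepupae (0.861, 0.759 to 0.976), a ratio that turned to 1.09 to 1.21 with the other scalings, so no direction is given.

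The list of molybdenum cofactor genes and related oxidases, whose proteins supply or share the cofactor of xanthine dehydrogenase, had 10 of 17 unigenes lower in pupae (58.8%, against 39.4% of all filtered unigenes) and 0 higher. After centring, 6 were lower (35.3%, against 31.3%) and 0 higher (against 30.0%), so the share of lower calls then lay near the background. Aldehyde oxidase, a close relative of xanthine dehydrogenase, had 30 reads in pupae and 180 in prepupae in Unigene150682_FOB, 5.06-fold lower (3.43 to 7.72). Its other unigene, Unigene131419_FOB, had 20 reads in pupae and 168 in prepupae, 7.09-fold lower (4.45 to 11.9). Both unigenes were thus lower by a ratio like that of xanthine dehydrogenase. The xanthine dehydrogenase unigene Unigene53152_FOB is 168 bases long, and its match had an expect value of 2.61e-07. Which of these related enzymes it belongs to was not tested. Molybdenum cofactor biosynthesis protein 1 B had 48 reads in pupae and 89 in prepupae, and the MoeB-like molybdopterin biosynthesis protein had 42 in pupae and 72 in prepupae, both short of 2-fold.

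Families within and beside the lists were grouped after the values had been seen. The sulfurase that activates the cofactor, maroon-like in Drosophila, held 30 reads in pupae and 159 in prepupae over 6 unigenes, 4.47-fold lower (3.01 to 6.84). Of the 6, 5 were called lower (83.3%, against 39.4% of all filtered unigenes), and 4 after centring (66.7%, against 31.3%). Unigene91100_FOB, with 1 read in pupae and 3 in prepupae, had an interval (0.00753 to 4.92) that included no change. Sulfite oxidase, which also uses the cofactor, held 36 reads in pupae and 72 in prepupae over 3 unigenes, none of them called.

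Genes of purine synthesis, which supplies the substrates of xanthine dehydrogenase and of pteridine synthesis, were mostly higher or level. Of 27 filtered unigenes for purine supply and urate, 10 were higher (37.0%, against 23.0%) and 2 lower (7.41%, against 39.4%), and after centring 14 were higher (51.9%, against 30.0%) and 1 lower (3.70%, against 31.3%). Amidophosphoribosyltransferase, the committed step, had 624 reads in pupae and 105 in prepupae in Unigene152782_FOB, 7.04-fold higher (5.72 to 8.75). Phosphoribosylaminoimidazole carboxylase, a later step, had 588 reads in pupae and 56 in prepupae, 12.4-fold higher (9.45 to 16.7). IMP dehydrogenase, on the branch to GTP, held 244 reads in pupae and 33 in prepupae, 8.76-fold higher (6.08 to 13.0). Adenylosuccinate synthetase, on the branch to AMP, held 347 reads in pupae and 71 in prepupae, 5.79-fold higher (4.48 to 7.59). Smaller ratios were found for GMP synthase (2.25, 1.80 to 2.83) and for the 7 unigenes named for phosphoribosylformylglycinamidine enzymes (1.87, 1.61 to 2.18). The 2 lower unigenes were Unigene129665_FOB, with 6 reads in pupae and 22 in prepupae, and Unigene51870_FOB, with 4 in pupae and 12 in prepupae. The interval of Unigene51870_FOB (0.0929 to 1.30) included no change.

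AMP deaminase, which turns AMP back to IMP, was called in none of its 5 unigenes. It held 752 reads in pupae and 771 in prepupae, a ratio of 1.16 (1.04 to 1.28). Its unigene with the most reads had 330 in pupae and 336 in prepupae. The next, Unigene150065_FOB, had 187 reads in pupae and 207 in prepupae. Adenylosuccinate lyase held 152 reads in pupae and 221 in prepupae, a ratio of 0.815 (0.659 to 1.01) that turned above 1 with the other scalings. Uricase, which degrades urate, had 0 reads in pupae and 5 in prepupae and did not pass the filter.

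Tetrahydrobiopterin, a pterin made from GTP, is a cofactor of aromatic amino acid hydroxylases and of nitric oxide synthase. In the list of its recycling enzymes and users, 7 of 11 unigenes were higher (63.6%, against 23.0%) and 2 lower (18.2%, against 39.4%), and 1 of the 11 is an adaptor protein of nitric oxide synthase. All 7 higher unigenes were users of the cofactor. Nitric oxide synthase was higher in each of its 4 unigenes (against 23.0% of all filtered unigenes), with 356 reads in pupae and 88 in prepupae, 4.80-fold (3.79 to 6.13). It was led by Unigene157390_FOB with 171 in pupae and 33 in prepupae. Tyrosine hydroxylase, the first enzyme from tyrosine to dopamine, had 553 reads in pupae and 0 in prepupae in Unigene141472_FOB. This was at least 177-fold higher by the exact interval. Its other unigene had 250 reads in pupae and 8 in prepupae, 37.0-fold higher (18.5 to 86.7).

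The 2 lower unigenes of the list were a recycling enzyme and a reductase. Pterin-4a-carbinolamine dehydratase, which takes part in regenerating the cofactor, had 35 reads in pupae and 91 in prepupae, 2.19-fold lower (1.47 to 3.34), a call that centring removed. Dihydrofolate reductase had 22 reads in pupae and 78 in prepupae, 2.99-fold lower (1.84 to 5.04). Dihydropteridine reductase, the other recycling enzyme, had 108 reads in pupae and 245 in prepupae, a ratio of 0.523 (0.413 to 0.658) that was short of 2-fold.

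**Figure D3:**
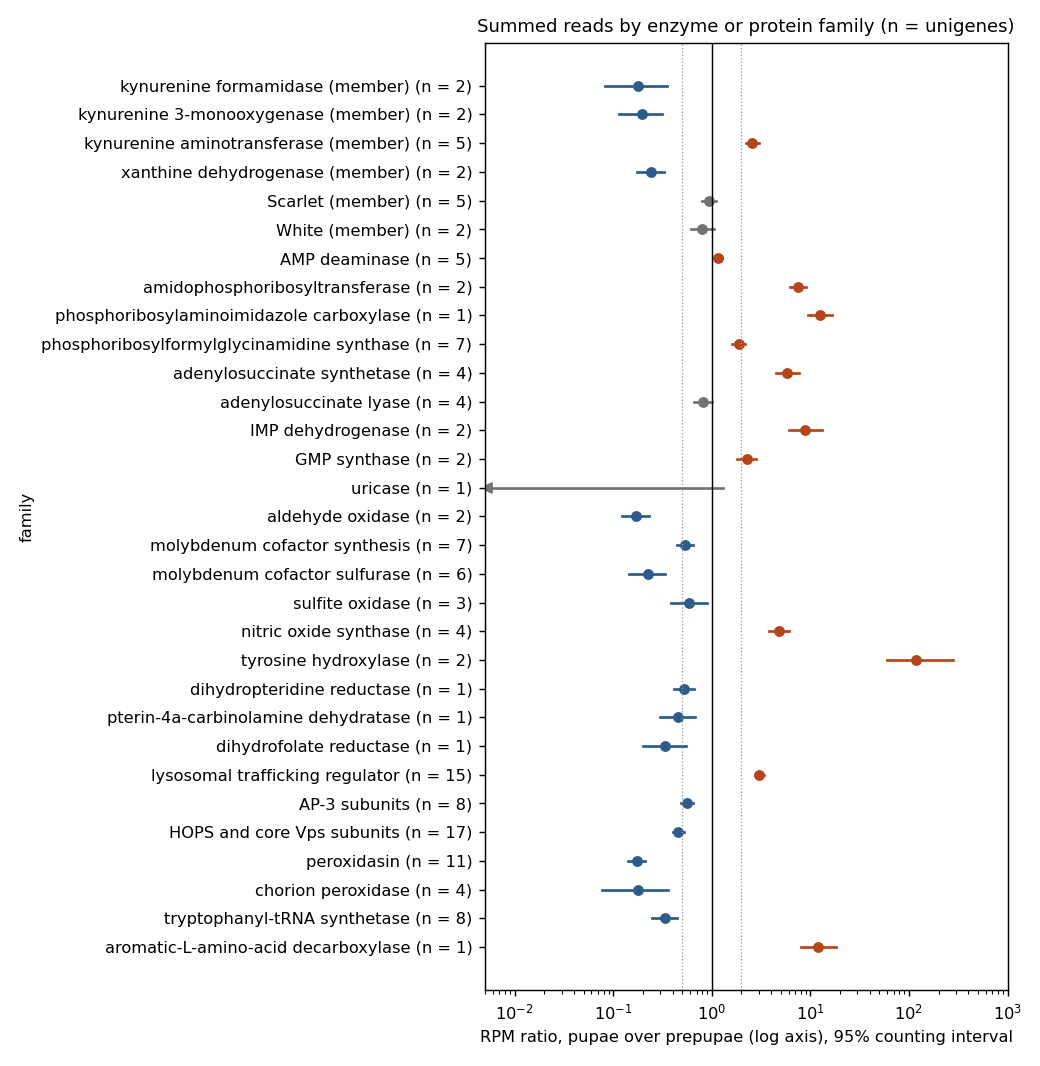
Ratio of summed RPM in pupae over prepupae by enzyme or protein family on a log axis, with its exact 95% counting interval; n is the number of unigenes, dotted lines mark 2-fold, and grey marks intervals that include no change. Xanthine dehydrogenase and the molybdenum cofactor families lie below 1 and most families of purine synthesis above 1, while Scarlet, White and adenylosuccinate lyase lie just below 1 here and above 1 with the other scalings.

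Pigment granules are related to lysosomes, and in Drosophila their formation needs the AP-3 adaptor (garnet, carmine) and the HOPS tethering complex (deep orange, carnation). The list of granule genes had 13 of 44 unigenes higher (29.5%, against 23.0%) and 17 lower (38.6%, against 39.4%), shares near the background on the deposited scale. After centring, 14 were higher (31.8%, against 30.0%) and 9 lower (20.5%, against 31.3%). On the deposited scale, all 13 higher calls were on lysosomal trafficking regulator and all 17 lower calls on other unigenes. The shares of the list thus pool opposite directions. Lysosomal trafficking regulator, mauve in Drosophila, was higher in 13 of its 14 filtered unigenes (92.9%, against 23.0%) and lower in 0 (against 39.4%). Its 15 unigenes held 1292 reads in pupae and 504 in prepupae, 3.04-fold higher (2.74 to 3.37). The unigene with the most reads had 204 in pupae and 98 in prepupae, and the next had 164 in pupae and 64 in prepupae. It is a large protein, and several of these unigenes can be fragments of 1 transcript.

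AP-3 subunits had 5 of 8 unigenes lower (62.5%, against 39.4%) and 0 higher, and 3 lower after centring (37.5%, against 31.3%), with 285 reads in pupae and 600 in prepupae. AP-3 complex subunit sigma-2, the longest of them at 1591 bases and the one with the most reads, had 128 in pupae and 136 in prepupae. Its ratio was 1.12 (0.869 to 1.43), at 43.7 RPKM in pupae and 39.2 in prepupae. A beta-1 unigene of 250 bases, Unigene107573_FOB, stood above it at 91.3 RPKM in pupae and 279 in prepupae, and was called lower. HOPS and core Vps subunits had 9 of 17 lower (52.9%, against 39.4%) and 0 higher, and 4 lower after centring (23.5%, below the 31.3% of all filtered unigenes), with 356 reads in pupae and 923 in prepupae, 2.19-fold lower (1.93 to 2.48). The group also holds a unigene matched to vacuolar protein sorting 33B, so its sum is not of HOPS alone. That unigene had 17 reads in pupae and 129 in prepupae, 6.40-fold lower (3.85 to 11.3). Vacuolar protein sorting 18, deep orange in Drosophila, had 84 reads in pupae and 180 in prepupae in Unigene155358_FOB, a ratio of 0.553 (0.422 to 0.721) that was short of 2-fold.

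In a list of peroxidases and of separate proteins that use tryptophan, 18 of 24 filtered unigenes were lower (75.0%, against 39.4%) and 2 higher (8.33%, against 23.0%). After centring, 17 were lower (70.8%, against 31.3%) and 2 higher (8.33%, against 30.0%). Of the 18 lower on the deposited scale, 9 were peroxidasin and 4 chorion peroxidase, so the share is mostly of peroxidases. In Drosophila the haem peroxidase Cardinal takes part in ommochrome formation, but no listed unigene carried that name, and the peroxidases of the list were peroxidasin, which acts on basement membranes, and chorion peroxidase. Peroxidasin held 108 reads in pupae and 739 in prepupae, 5.77-fold lower (4.71 to 7.13). Its unigene with the most reads, named peroxidasin-like protein, had 0 in pupae and 177 in prepupae, at least 40.1-fold lower by the exact interval. Unigene154020_FOB had 26 reads in pupae and 144 in prepupae, and Unigene147879_FOB had 15 in pupae and 101 in prepupae. Chorion peroxidase was called lower in all 4 of its unigenes (against 39.4% of all filtered unigenes), with 9 reads in pupae and 60 in prepupae. Unigene37145_FOB (1 read in pupae, 5 in prepupae) and Unigene49406_FOB (0 in pupae, 5 in prepupae) had intervals that included no change.

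Tryptophanyl-tRNA synthetase, which charges tryptophan for translation, held 63 reads in pupae and 223 in prepupae over 8 unigenes, 2.99-fold lower (2.25 to 4.02). Its 1 unigene called higher, Unigene39462_FOB, had 2 reads in pupae and 0 in prepupae, and the interval included no change. Aromatic-L-amino-acid decarboxylase, which makes dopamine and serotonin, had 270 reads in pupae and 27 in prepupae, 11.9-fold higher (7.97 to 18.3). The median log2 ratio of the list was −2.19, or −2.09 when its 5 unigenes at 0 reads in a library were recomputed with the floor of 3 reads. The list of other subfamily G transporters held 2 unigenes, both named member 4. Unigene142767_FOB had 11 reads in pupae and 46 in prepupae, 3.53-fold lower (1.80 to 7.55), and Unigene114335_FOB had 20 in pupae and 15 in prepupae, a ratio of 1.58 (0.769 to 3.32) that was called higher after centring.

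**Figure D4:**
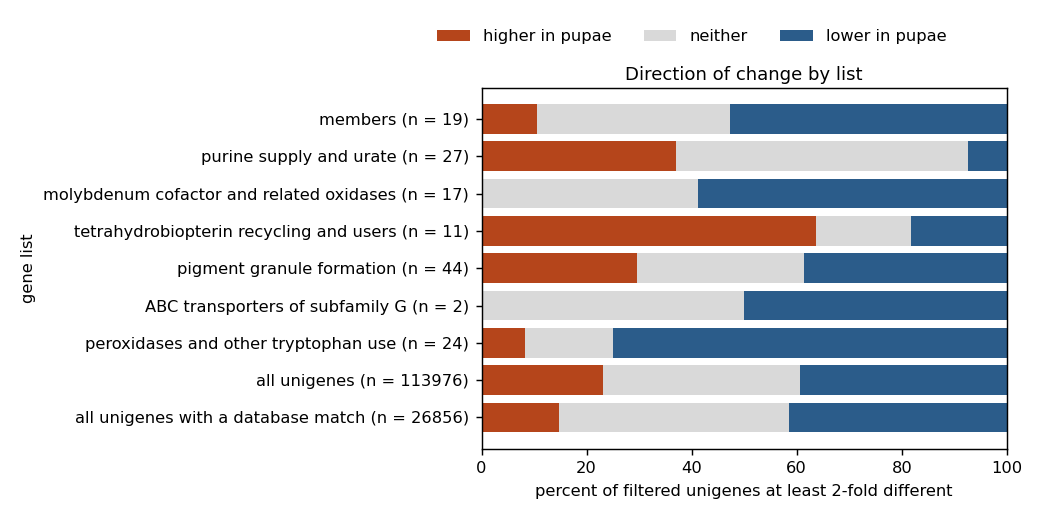
Percent of filtered unigenes called at least 2-fold higher in pupae (left), neither (middle) or lower (right), for the members, the 6 related lists, all unigenes and all unigenes with a database match; n is the number of filtered unigenes. The list of molybdenum cofactor genes has no higher call, and the purine list has more higher calls (37.0%) than lower ones (7.41%).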

How the data were processed

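RNA of 1 library of male pupae and 1 of male prepupae was sequenced on an Illumina instrument, per the labels. The deposited tables hold, per the file headers, the count of uniquely assigned reads of each unigene, its RPKM, the percent of the unigene that reads cover, its length in bases, and its database match and Gene Ontology terms. For the assembler, the aligner, the database versions and any read filter, the sources used here name none. Recomputing RPKM from reads, length and library total gave the deposited RPKM for every unigene, within 1e-06. A unigene missing from a table was taken as 0 reads.

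Python 3.11.15 with pandas 2.3.3, numpy 2.4.6 and scipy 1.17.1 was used, and R 4.3.3 with edgeR 4.0.16 for TMM factors only. A count test needs replicates and was not run, and no p-value was computed. A call needed 2-fold on the log2 scale with 1 RPKM added and a mean of at least 1 RPKM. RPM ratios have exact conditional binomial (Clopper-Pearson) 95% intervals, which cover counting error only. For a unigene with 0 reads in a library, a fold given as at least a value is the near end of that interval. A floor of 3 reads took the place of 0 for tryptophan oxygenase and for the medians recomputed with it. The procedure was tested on simulated counts with counting noise only, in unigenes with more reads than most members have. Its behaviour at the depth of most members was not tested.

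All members were named, and up to 4 unigenes with the most reads in sum of each of 6 keyword lists. The members and lists were chosen with earlier results of these data known. Families, unigenes outside the rule and Gene Ontology terms were chosen after the values were seen. Alternatives were pseudocounts of 0.1 and 5, no filter, a mean of 5 RPKM, TMM, median-of-ratios, centring on the median, at least 20 reads, at least 500 bases, and leaving out the aminotransferase with a second substrate. Sequences and a genome were not used here.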

Additional observations from a re-analysis of the deposited data

How the results depend on the processing

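No paired analysis was possible because each stage had 1 library, and no replicate could be left out. The count of lower members stayed between 8 and 10 under pseudocounts of 0.1 and 5, the other filters on level and reads, and the other scalings, and was 4 among unigenes of at least 500 bases. The count of higher members was 2, but 1 at that length and 1 without the kynurenine/alpha-aminoadipate aminotransferase. The 6 lists together had 32 higher and 50 lower unigenes, 38 and 37 with TMM, 36 and 40 with median-of-ratios, 38 and 35 after centring, and 10 higher and 12 lower at that length, where fewer unigenes are counted. Summed reads of the kynurenine pathway gave a ratio of 1.56 (1.38 to 1.77), which was 2.05 with TMM, 1.98 with median-of-ratios, 2.19 after centring and 3.17 at that length, and reversed to 0.404 without the aminotransferase. The transporters gave 0.896, and 1.18, 1.13, 1.26 and 0.378 in the same order. Xanthine dehydrogenase gave 0.239, and 0.336 after centring. All members gave 1.01, and 1.32, 1.27, 1.41 and 1.92 in the same order, and 0.569 without the aminotransferase. The scalings differ by construction, since they set the typical unigene to no change, and the lower share of calls over all unigenes was 63.1% on the deposited scale, 51.1% with TMM and 52.7% with median-of-ratios. Depth limits tryptophan oxygenase and the unigenes with few reads.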

Other observations

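The deposited Gene Ontology terms gave sets that did not use the words of the rule; the terms were chosen after the values were seen. Eye pigment biosynthetic process stood on 10 unigenes, 8 of them outside the rule, of which 4 were higher (against 23.0% of all filtered unigenes) and 4 lower in pupae (against 39.4%), and 4 higher and 3 lower after centring. The higher ones matched proteins without a functional name. Unigene138868_FOB had 55 reads in pupae and 18 in prepupae (3.62-fold higher, 2.09 to 6.55), and Unigene96273_FOB, which matched the same Tribolium gene model, had 15 in pupae and 6 in prepupae. Unigene119872_FOB had 34 reads in pupae and 5 in prepupae (8.06-fold higher, 3.14 to 26.4), and Unigene3796_FOB had 17 in pupae and 2 in prepupae (10.1-fold, 2.39 to 89.9). The lower ones were croquemort, a scavenger receptor in Drosophila, with 186 reads in pupae and 542 in prepupae in its most abundant unigene and 0 in pupae and 26 in prepupae in another, and a pair of DEAD box RNA helicase unigenes.

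Pteridine and derivative biosynthetic process stood on 6 unigenes, all outside the rule, and all were lower in pupae (against 39.4% of all filtered unigenes), or 3 of 6 after centring (against 31.3%), with 52 reads in pupae and 198 in prepupae, 3.21-fold lower (2.36 to 4.45). The intervals of 2 of them included no change. They include cinnamon, gephyrin, maroon-like and molybdenum cofactor sulfurase matches, so they overlap the molybdenum cofactor families. Pteridine-dependent monooxygenase activity stood on 11 unigenes, of which 10 were higher (90.9%, against 23.0%) and 0 lower (against 39.4%), with 1902 reads in pupae and 132 in prepupae, 17.1-fold higher (14.3 to 20.5). The most abundant of these, Unigene69159_FOB, had 778 reads in pupae and 34 in prepupae and matched a Drosophila mojavensis protein without a functional name. Of the 11, 3 were named for trachealess, a transcription factor in Drosophila, so the term does not mark hydroxylases alone. Unigene15647_FOB (8 reads in pupae, 3 in prepupae) and Unigene86123_FOB (4 in pupae, 1 in prepupae) were called higher with intervals that included no change. The set holds the tyrosine hydroxylase Unigene120728_FOB, so it overlaps the list of tetrahydrobiopterin users.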
